A study of Rattus norvegicus with 40 samples.

Results

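The hippocampus of aged rats with impaired spatial memory (AI) was compared with that of young rats (Y), whatever magnetic stimulation the slices had received. The members are the 12 primary arrays of 4 AI rats and the 12 primary arrays of 4 young rats, so 24 of the 40 arrays of the series. Repeat hybridizations were left out. All animals were male Long-Evans rats that had been trained to find a platform in the Morris water maze. The young rats were 5 to 6 months old, and the AI rats are 25 to 26 months old by their sample labels and 24 to 25 months old by the treatment protocol. AI rats were those that located the platform less accurately than young rats did, and aged rats that performed as well as the young formed the aged unimpaired group (AU), with 4 rats and 12 arrays, which is used below for context. All groups share the handling: the hippocampi were cut into slices 1 mm thick and kept alive in artificial cerebrospinal fluid, and the slices of each brain were divided between sham (CTR, coil at a distance of 20 cm), 1 Hz repetitive stimulation and intermittent theta-burst stimulation (iTBS), with the coil at 1 cm for both stimulations and its intensity at 15% of what the machine can deliver. RNA was collected 1 hour after treatment by the labels and 2 hours by the protocol. The 3 arrays of a rat come from 1 brain, so they were averaged and the rat, with 4 in each group, was the replicate. The AI and young rats therefore differ in age and in maze performance together. In this total RNA of mixed tissue fewer cells of a type and less RNA per cell cannot be told apart.

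Microglia are the resident macrophages of the brain, and in aged rodents they tend to produce more complement, more major histocompatibility complex (MHC) molecules and more interferon-induced proteins. C1q binds a target, C4 and C2 form the enzyme that cleaves C3, and the C3 fragments tag membranes, synapses among them, for uptake through complement receptors. MHC class II presents peptides taken up from outside a cell, MHC class I presents those made inside it, and interferons switch on both antigen presentation and a set of antiviral genes.

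Values are z-scores of log intensity within an array, multiplied by 4.20, the mean SD of log2 intensity over the 24 arrays. A difference in these units approximates a log2 fold change, and a level is the distance from the mean of its array, so a negative level only means a signal below that mean. A level can be compared between rats for 1 probe, not between genes. Each fit of limma covered all 45598 probes with Benjamini-Hochberg adjustment, and a probe was called at an adjusted p below 0.05. Where the levels of all 4 AI rats lay above, or all below, those of the 4 young rats, the groups are said not to overlap.

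Among the arrays 2 stood out, the sham arrays of young rat 2 and of AI rat 2, and leaving them out was in part chosen after seeing the data. Over 25483 probes that were well above background on each of the 36 primary arrays of the 3 age groups, centred on their means, the sham array of young rat 2 had a mean correlation of 0.709 with the 3 arrays of AI rat 1 and of 0.111 with the other arrays of its own rat. For the MHC class II gene RT1-Da its level was 7.29, where the arrays of AI rat 1 had 7.25 to 7.41. The sham array of AI rat 2 correlated most with AU rat 2 (0.605) and at -0.150 with its own rat. Arrays of 1 slide also resembled each other, with a median correlation of 0.22 between different rats of the same slide and of -0.172 across slides, and the AI sham array had a mean of 0.477 with the arrays of its own slide. Of these 36 arrays 24 were most like their own rat, and 16 of the 24 AI and young arrays were. Both sham arrays were kept under their labels. The counts over all genes, the medians of the main lists and the genes named first by rule are given with and without them. The young sham array stood out by its likeness to AI rat 1. Leaving it out therefore widens the difference in lists where AI rat 1 is high, and larger values without it are no support for that difference. The signal itself did not separate the groups: a mean of 79.9% of features lay well above background in AI rats and 81.5% in young rats (exact permutation test, two-sided, p = 0.771), and the SD of log2 intensity was 4.25 and 4.15 (p = 0.714, the same exact test). All 10 markers of neurons, all 11 of granule and pyramidal neurons and all 11 of homeostatic microglia on the array were well above background on all 24 arrays. This does not separate the hippocampus from its neighbours, since 73.8% to 92.4% of features passed on each array and 7 of 8 markers of thalamus and striatum passed on all arrays of a group.

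**Figure D1:**
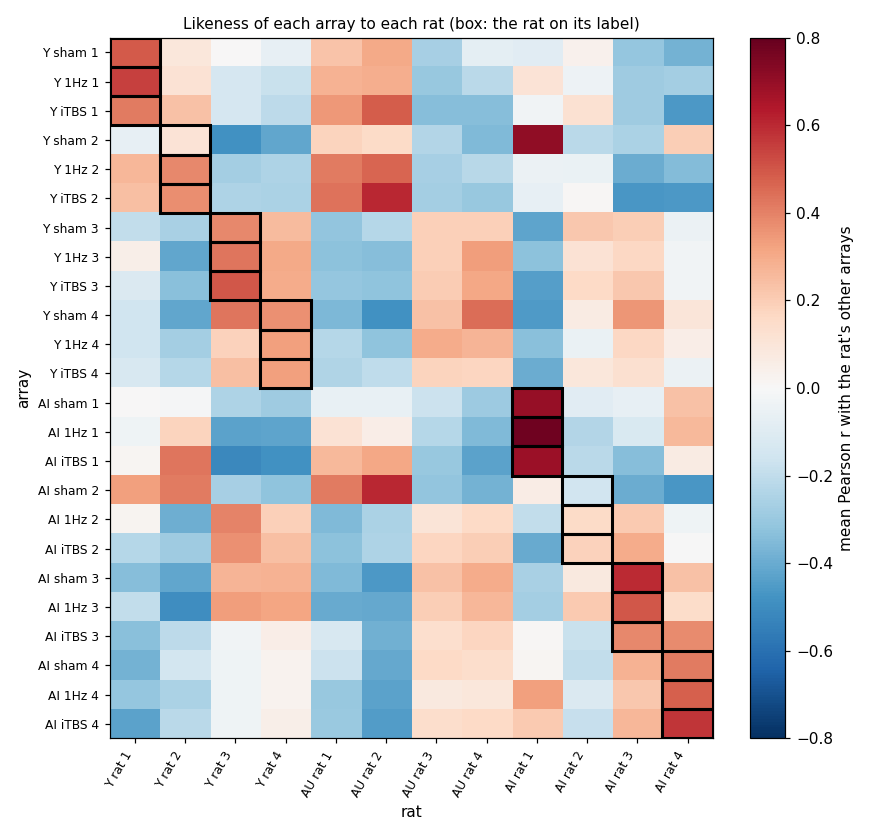
Mean Pearson correlation of each of the 24 AI and young arrays (rows) with the arrays of each of 12 rats (columns), after each probe's mean over 36 arrays was subtracted; boxes mark the rat named by the label. The row of the young sham array 2 is darkest red under AI rat 1 (0.709), and that of the AI sham array 2 under AU rat 2 (0.605).

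No probe was called between the AI and young rats. The smallest adjusted p of limma was 0.782, for Spp1 (osteopontin, a secreted protein of activated microglia). Of all probes 1282 had an unadjusted p under 0.05, 892 of them higher and 390 lower in AI rats. At a rate of 5%, 2279.9 of the 45598 probes would have such a p by chance. Of the counts of this kind given here and below, only that of iTBS against 1 Hz (2886) was above this number. Of 16581 named genes, each read by its brightest probe, the groups did not overlap for 236 that were higher (1.42%) and 172 that were lower (1.04%) in AI rats, and an unadjusted p under 0.05 was found for 2.71% and 0.893%; these shares are the background for the counts below. Without the 2 sham arrays still no probe was called, with a smallest adjusted p of 0.337, and 1830 probes had an unadjusted p under 0.05. The groups then did not overlap for 466 genes higher (2.81%) and 309 lower (1.86%), with 3.78% and 1.45% at an unadjusted p under 0.05. The median difference over all genes was -0.05 in both.

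The description therefore rests on levels in single rats and on counts over lists of related genes, none of which passed the test. Promoters of the genes that open these accounts are shown first, since interferon-induced genes and MHC class II genes carry well-known response elements. The sequences are from RefSeq, build GRCr8, 5' to 3' on the strand of the gene, and end at the base before its start. Capitals mark the core of the interferon-stimulated response element, GAAA and GAAA with any pair of bases between them (written GAAA NN GAAA), in Ifi44 (chr2:243303841-243303960, minus strand), Ifit3 (chr1:241527206-241527325, plus strand) and Oas1a (chr12:41330346-41330465, plus strand), and the Y box core CCAAT in RT1-Da (chr20:4515295-4515414, plus strand) and RT1-Bb (chr20:4604119-4604368, minus strand). Both strands were searched, so a match on the other strand reads TTTC NN TTTC or ATTGG, and in Oas1a 2 overlapping matches run together.
Ifi44: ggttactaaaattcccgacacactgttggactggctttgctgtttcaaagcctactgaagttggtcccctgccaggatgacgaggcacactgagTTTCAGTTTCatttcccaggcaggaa
Ifit3: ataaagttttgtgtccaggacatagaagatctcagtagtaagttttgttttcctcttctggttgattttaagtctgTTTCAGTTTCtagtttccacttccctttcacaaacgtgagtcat
Oas1a: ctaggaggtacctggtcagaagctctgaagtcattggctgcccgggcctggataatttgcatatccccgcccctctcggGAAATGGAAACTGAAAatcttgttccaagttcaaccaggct
RT1-Da: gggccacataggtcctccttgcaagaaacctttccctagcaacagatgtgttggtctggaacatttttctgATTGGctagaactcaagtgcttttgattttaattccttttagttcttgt
RT1-Bb: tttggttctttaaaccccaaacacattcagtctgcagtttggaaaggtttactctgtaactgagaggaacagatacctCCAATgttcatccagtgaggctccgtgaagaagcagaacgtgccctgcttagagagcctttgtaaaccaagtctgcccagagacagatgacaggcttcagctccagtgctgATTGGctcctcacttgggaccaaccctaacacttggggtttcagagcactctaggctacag
In the 250 bases before the start, the motif GAAA NN GAAA was found in 902 of 27457 rat promoters (3.29%) and in 20 of the 27 interferon-induced genes that had a promoter in the table, out of 37 on the array. The CCAAT core, a short motif, was found in 34.3% of all promoters, in 10 of 11 MHC class II genes and in 14 of 22 MHC class I genes. The motifs overlapped in 4 promoters of all. A match is only a match of letters, and no binding was measured here.

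The genes that follow were named by rule, the 5 with the smallest p in each direction among those without overlap that were well above background on each array of the AI rats or of the young rats. Their adjusted p was 1.00 for each. Ifi44, an interferon-induced gene, had levels of 0.59, 0.76, 0.83 and 0.43 in young rats 1 to 4 and of 2.13, 1.18, 1.88 and 1.90 in AI rats 1 to 4. All AI rats lay above all young rats, with AI rat 2 the lowest of them, and the difference was 1.12 ± 0.23 (SE), or 1.32 ± 0.22 without the 2 sham arrays. Aspg, an asparaginase that is known as a marker of reactive astrocytes, read -0.24, -0.28, 0.22 and 0.15 in young rats and 2.00, 0.67, 1.85 and 2.16 in AI rats. Again AI rat 2 was the lowest AI rat and the groups did not overlap (difference 1.70 ± 0.32, and 2.06 without the sham arrays). Batf, a transcription factor of the AP-1 family in immune cells, was at -3.19, -2.35, -2.41 and -2.21 in young rats and at 0.49, -1.40, -0.91 and -0.71 in AI rats, a difference of 1.91 ± 0.39, or 2.16 without the sham arrays and 1.07 with normexp background correction and quantile normalization.

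The other genes on the higher side were members of lectin-like families tied to natural killer cells. For Clec2d2l2 the levels were -5.08, -4.31, -4.34 and -4.52 in young rats and -1.51, -2.98, -2.56 and -2.21 in AI rats (difference 2.25 ± 0.32, 2.57 ± 0.32 without the sham arrays). It was well above background on 12 of 12 AI arrays and 3 of 12 young arrays. Its probes disagree, since the brightest of its 3 probes differed by 0.05 and the remaining one by 2.10. Ly49s7, whose family consists of close copies, differed by 1.16 ± 0.22, or by 1.34 without the sham arrays. The probe read was well above background on 5 of 12 young arrays. Its other probe, well above background on no array, differed by 0.19, and with normexp and quantile normalization the difference was 0.30.

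On the lower side Hrk, a BH3-only protein that promotes apoptosis in neurons, had levels of 2.25, 1.90, 2.03 and 2.07 in young rats and of 1.30, 1.68, 1.57 and 1.37 in AI rats. The highest AI rat lay below the lowest young rat, and the difference was -0.58 ± 0.16. These values are from the dimmer of its probes, which had the smaller p, and the brightest differed by -0.42. Met, the receptor of hepatocyte growth factor, read 3.08, 3.09, 3.59 and 3.13 in young rats and 2.12, 2.87, 1.86 and 2.56 in AI rats, with no overlap (difference -0.87 ± 0.25), while its other probe differed by -0.16. Rpl39l1, a copy of a ribosomal protein gene that may share signal with its relatives, differed by -1.38 ± 0.37, and Aspdh by -0.62 ± 0.18, or by -0.52 and -0.24 with normexp and quantile normalization. Without the sham arrays Hrk, Met, Rpl39l1 and Aspdh differed by -0.62, -0.85, -1.55 and -0.66. Cartpt, the precursor of a neuropeptide, had levels of 0.21, 0.43, 1.41 and 1.20 in young rats and of -1.08, 0.18, -0.53 and -0.17 in AI rats. The young rats were spread over more than 1 unit, with AI rat 2 just below the lowest of them (difference -1.21 ± 0.35). Without the sham arrays AI rat 2 was at 0.57, above young rat 1, so the groups overlapped (difference -1.28). Left out of this set because it was dim, Spp1 was at -3.67, -3.48, -4.01 and -3.57 in young rats and at -2.35, -2.38, -2.09 and -2.27 in AI rats. The rats of each group lay close together, with a difference of 1.41 ± 0.17, and the gene was well above background on 7 of 12 young and 11 of 12 AI arrays. With normexp background correction and quantile normalization the Spp1 difference was 0.46.

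**Figure D2:**
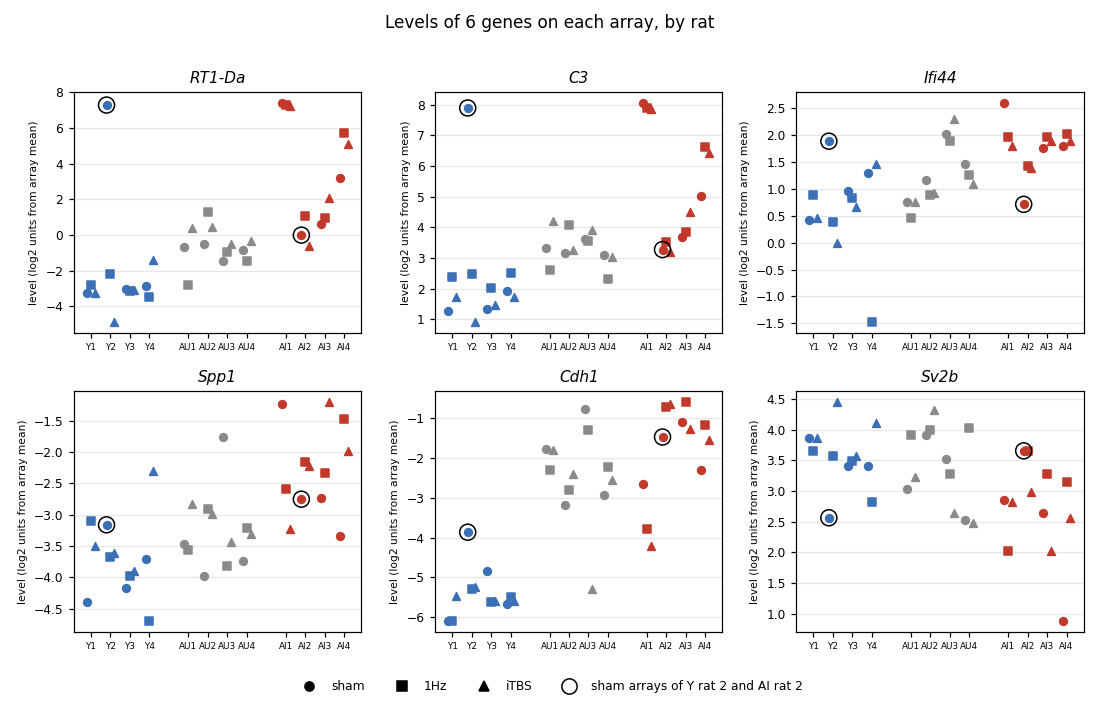
Level of RT1-Da, C3, Ifi44, Spp1, Cdh1 and Sv2b on each array (points; z-score times 4.20, about log2 units from the array mean), by rat, for young, AU and AI rats; the 2 sham arrays of doubtful identity are ringed. The ringed young array is the only young array near AI rat 1 for RT1-Da (7.29), while the AI rats span 0.15 to 7.31 as rat means.

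The classical complement genes were higher in AI rats as a group, with wide spread among the rats. All 9 of 9 genes had a positive difference, with a median of 1.52 against -0.05 over all genes, and none was free of overlap; 4 had an unadjusted p under 0.05. Without the 2 sham arrays the median was 1.88, and 5 genes did not overlap. C3, the central component, had levels of 1.79, 3.77, 1.61 and 2.06 in young rats and of 7.94, 3.33, 4.02 and 6.03 in AI rats. Young rat 2 was the only young rat above an AI rat, and its level was 1.70 without its sham array, below all AI rats. The difference was 3.02 ± 0.94, or 3.55 without the sham arrays. C4b read 2.35, 3.99, 1.69 and 2.32 in young and 8.67, 3.02, 3.39 and 6.64 in AI rats (2.84 ± 1.17), with AI rats 1 and 4 far above the others. C4a, nearly identical to C4b in sequence and so not separable from it with certainty, differed by 2.97. For C1qa, 1 of the chains of C1q, the levels were 5.47, 6.60, 5.14 and 4.96 against 9.12, 5.56, 5.89 and 7.65 (1.51 ± 0.74), and C1qb and C1qc differed by 1.35 and 1.52. The early components C1r and C1s differed by 0.72 and 0.28, and C2 by 1.82. Without AI rat 1 the list median was 0.82, and without both rats 2 it was 2.36.

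Among 16 receptors and regulators of complement 12 had a positive difference, with a median of 0.45, and 5 were higher without overlap. The clearest was Cfd, the protease of the alternative pathway, at 0.21, 0.24, 0.30 and 0.30 in young rats and at 1.17, 0.46, 1.10 and 1.35 in AI rats (0.76 ± 0.21). The receptor genes Itgb2 (1.54), C3ar1 (1.12) and C5ar2 (0.91), and Cfb (0.43), also did not overlap. The regulators Clu (-0.01), Cd55 (0.14) and Csmd1 (-0.17) had small differences.

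MHC class II genes had the widest range. RT1-Da, an alpha chain of the class II molecule, was at -3.09, 0.08, -3.08 and -2.57 in young rats and at 7.31, 0.15, 1.22 and 4.67 in AI rats, a difference of 5.51 ± 1.46. AI rat 2 lay only just above young rat 2, whose level was -3.53 without its sham array, and the difference was then 6.43 ± 1.33. Cd74, the invariant chain that escorts class II molecules, read -0.31, 3.06, -0.47 and 0.32 in young and 9.11, 2.61, 3.55 and 6.78 in AI rats (4.86 ± 1.38, and 5.65 without the sham arrays). Young rat 2 exceeded AI rat 2 only with its sham array, since its level without it was -0.08. The beta chain RT1-Bb read -2.23, 0.06, -2.41 and -2.02 against 5.77, -0.90, -0.18 and 2.63 (3.48 ± 1.31), and RT1-Db2 and RT1-Db1 differed by 3.34 and 2.82. Over the whole list the CCAAT core was found in 10 of 11 promoters, as printed for RT1-Da and RT1-Bb. The promoters of RT1-Ba and RT1-Ha also held it, and that of Ctss did not. Ciita, the activator of class II genes, differed by 0.97 and the protease Ctss by 0.87, whereas RT1-Ba and RT1-Ha, at -0.15 and -0.39, were not higher. Of 13 genes 11 had a positive difference with a median of 1.06, and 1 did not overlap; without the sham arrays the median was 1.36 and 5 did not overlap. The median was 0.44 without AI rat 1 and 1.69 without both rats 2. It was 2.82 over the 9 genes well above background on all arrays of a group, a filter that dim genes can pass through the group in which they are high, so that this median is no support for the difference. RT1 genes are near-identical relatives and may share signal.

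MHC class I and antigen processing genes were more even. All 24 genes on the array had a positive difference, with a median of 0.96 (1.19 without the sham arrays, 0.60 without AI rat 1), and 2 did not overlap, RT1-M3-1 and RT1-CE10. RT1-M3-1, a non-classical class I gene, was at 2.98, 2.80, 2.97 and 2.90 in young rats and at 3.71, 3.46, 3.54 and 3.63 in AI rats (0.67 ± 0.15), a small difference between tight groups. RT1-A2, a classical class I gene, read 4.51, 5.91, 4.54 and 4.58 against 8.90, 5.33, 5.56 and 7.50 (1.94 ± 0.75), with AI rat 2 below young rat 2. RT1-CE5 differed by 3.00 and RT1-CE10 by 1.59. Of the processing machinery, the immunoproteasome subunits Psmb8 and Psmb9 differed by 1.40 and 1.21, the peptide transporter Tap1 by 0.99 (0.33 on its other probe) and the light chain B2m by 0.61. Without the 2 sham arrays 14 of the 24 genes were higher without overlap, beside 2.81% of all genes. The young array left out had MHC levels near those of AI rat 1, so this larger count is no support for the difference.

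Interferon-induced genes had the largest number of members without overlap, though not the largest share. Of 37 genes 35 had a positive difference, with a median of 0.75 (0.99 without the sham arrays). All 4 AI rats lay above all young rats in 11 genes (29.7%, beside 1.42% of all genes), and in 19 without the sham arrays (51.4%, beside 2.81%). With all arrays the share was 31.2% for complement receptors and regulators, 8.33% for MHC class I and 0% for classical complement. Without the sham arrays it was 58.3% for MHC class I and 55.6% for classical complement. The young array left out resembled AI rat 1, so these larger shares, that of the interferon list included, are no support for a difference. Ifit3, an antiviral protein, was at -0.38, 0.21, 0.03 and 0.15 in young rats and at 1.18, 0.63, 1.46 and 0.85 in AI rats (1.03 ± 0.23). Its adjusted p was 0.053 in the limma fit of single arrays with the slide as a term, where the arrays of a rat count in part as replicates. Oas1a, a sensor of double-stranded RNA, read -1.39, -1.48, -1.85 and -1.54 against 0.53, -1.06, -0.56 and 0.10 (1.32 ± 0.33, or 0.80 with normexp and quantile normalization). In both genes, as in Ifi44, the young rats stayed close together and AI rat 2 was the lowest AI rat. Rtp4, a chaperone induced by interferon, read -0.06, -0.06, 0.03 and 0.46 against 1.58, 0.55, 1.08 and 1.23 (1.01 ± 0.24). The transcription factor Irf7 (0.92), the RNA sensor Ifih1 (0.87), the regulator Usp18 (0.63) and Parp14 (1.12) also did not overlap. Igtp and Oas1b, at -0.14 and -0.12, were the exceptions in sign, and a dimmer probe of Igtp, well above background on all 24 arrays, differed by 1.22. The interferon median was 0.54 without AI rat 1.

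Genes of activated microglia were higher in AI rats for 19 of 22 members (median 0.58, 0.65 without the sham arrays and 0.38 without AI rat 1), and Spp1, Trem2 and Gpnmb did not overlap. Trem2, a lipid receptor that microglia need for their activated state, was at 4.30, 4.46, 4.20 and 4.28 in young rats and at 5.83, 4.76, 5.07 and 5.45 in AI rats (0.97 ± 0.23). Gpnmb, a glycoprotein of lipid-laden phagocytes, read 1.48, 0.76, 1.67 and 1.63 against 2.52, 1.97, 2.40 and 2.28 (0.91 ± 0.24). Lgals3, a galactose-binding lectin, read -0.31, 0.92, -0.29 and 0.63 against 4.87, 0.73, 2.04 and 3.60 (2.57 ± 0.78), again with AI rat 1 highest and AI rat 2 lowest. Members of the same list with no such difference were Apoe (-0.11), Cd9 (0.00), Lpl (-0.51) and Cst7 (-0.45). Markers of homeostatic microglia were also higher, in 9 of 11, with a median of 0.44 and none free of overlap (4 without the sham arrays). Aif1 differed by 1.05, Sall1 by 0.51, Gpr34 by 0.48 and P2ry12 by 0.38, and Cx3cr1 by -0.22. The mean level of this marker list was 2.65 to 2.77 in young rats and 3.58, 2.66, 2.93 and 3.28 in AI rats. Its part in the differences of the immune lists was not tested.

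Of 22 genes of Toll-like receptors and the NF-kB pathway 18 were positive (median 0.54, 0.61 without the sham arrays and 0.29 without AI rat 1), and the 3 without overlap were Tlr3 (1.03 ± 0.25), the receptor of double-stranded RNA, Nfkb1 (0.81) and Irak3 (0.63). Of 30 cytokines and chemokines 23 were positive (median 0.78, the same without the sham arrays and 0.40 without AI rat 1). Il18 (1.32) and Cxcl16 (1.37) were higher without overlap, and the neuronal chemokine Cx3cl1 was lower without overlap (-0.27). Il1b, an early inflammatory cytokine, read 2.06, 3.49, 2.94 and 2.16 in young rats and 7.55, 3.09, 3.60 and 5.25 in AI rats (2.21 ± 0.86), so that AI rat 2 lay within the young rats. Tnf differed by 0.36 and Il6 by 0.93.

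Genes of reactive astrocytes were positive in 21 of 22 members, with a median of 0.49 (0.55 without the sham arrays) and 3 without overlap, Aspg, Serpina3n (0.95, but 0.31 with normexp and quantile normalization) and Osmr (0.49). Gfap, the intermediate filament of astrocytes, was at 3.49, 3.16, 2.76 and 2.39 in young rats and at 4.98, 3.18, 3.79 and 3.77 in AI rats (0.98 ± 0.39), and AI rat 2 overlapped with the young rats. The markers of astrocytes in general had a median of -0.07, with mean levels of 4.83 to 5.15 in young and 4.76 to 5.13 in AI rats.

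**Figure D3:**
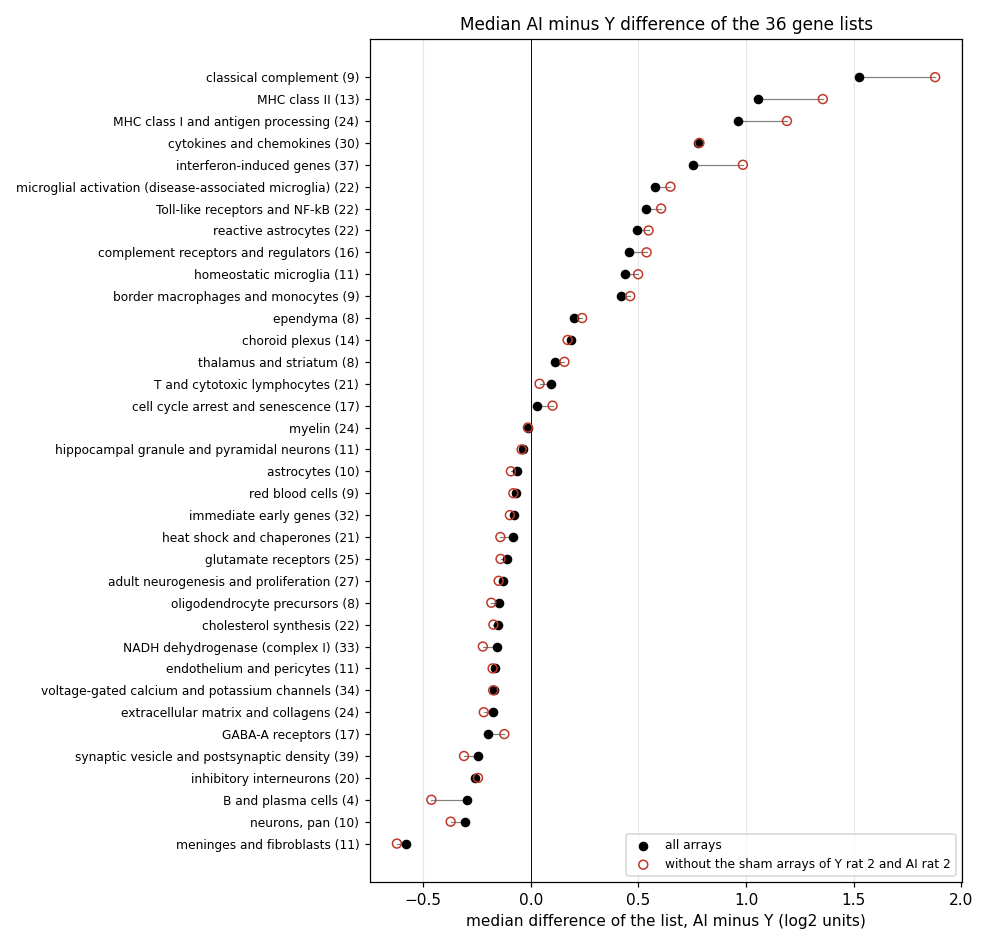
Median AI minus young difference (about log2 units) of each of 36 gene lists, with all arrays (filled) and without the 2 doubtful sham arrays (open). Classical complement (1.52), MHC class II (1.06) and MHC class I (0.96) lie farthest to the right, and meninges and fibroblasts (-0.58) farthest to the left.

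Cells that enter from blood or lie at the borders of the brain could also carry these genes, so their markers were read as lists. Of 9 markers of border macrophages and monocytes 8 had a positive difference (median 0.42), and the mean level was -3.00 to -2.80 in young and -2.66 to -2.18 in AI rats. S100a8 differed by 1.49, or by 0.54 with normexp and quantile normalization. Mrc1 was well above background on no array and Ccr2 on 5 young and 2 AI arrays. For T and cytotoxic lymphocytes the median over 21 markers was 0.10, with 15 positive, and the mean level was -2.91 to -2.31 in young and -2.73 to -2.11 in AI rats. Cd69 (0.90, but 0.18 with normexp and quantile normalization) alone was higher without overlap. An unadjusted p of limma under 0.05 was found for 3 markers, all higher, beside 2.71% of all genes. Ccl5 differed by 1.18, and Cd3e and Cd8a by 0.15 and -0.25. Cd3e was well above background on 9 young and 8 AI arrays, Cd8a on 2 and 1, and Klrd1 on none. Choroid plexus markers had a median of 0.19, with Cldn2 well above background on no array. Genes of red blood cells had a median of -0.07, with a mean level of 4.02 in AI rat 4 and of 1.40 to 2.85 in the other rats. The part of these cells in the immune differences was not tested.

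On the lower side, genes of synaptic vesicles and the postsynaptic density were lower in AI rats for 34 of 39 members, by a small median of -0.25 (-0.31 without the sham arrays, -0.16 over the mean of all probes of a gene). Sv2b and Syt4 did not overlap, beside 1.04% of all genes. Sv2b, a membrane protein of synaptic vesicles, was at 3.79, 3.53, 3.49 and 3.44 in young rats and at 2.56, 3.43, 2.65 and 2.20 in AI rats (-0.85 ± 0.26), with AI rat 2 just below the young rats and the sham array of AI rat 4, at 0.88, the lowest array. Rab3a, which tethers vesicles for release, differed by -0.74, Snap25 of the fusion machinery by -0.50, Syp by -0.38 and Syt4 by -0.28 (-0.12 on its other probe). General neuronal markers had a median of -0.30, 9 of 10 negative, with Tubb3 at -0.68, Nefm at -0.58 and Stmn2 at -0.47. The mean level of these markers was 5.43, 5.48, 5.16 and 5.31 in young and 4.84, 5.28, 5.04 and 4.82 in AI rats, and its part in the synaptic difference was not tested. Markers of granule and pyramidal neurons had a median of -0.03, with Fibcd1, a marker of CA1, at -0.63 ± 0.22 and C1ql2, a marker of the dentate gyrus, at 0.63. Interneuron genes had a median of -0.26, with Cck at -0.61 and Tac1 at -0.72. Receptors for GABA (-0.20) and glutamate (-0.11), ion channels (-0.17) and complex I of the respiratory chain (-0.16) were close to these values, and myelin genes were at -0.01, or 0.11 with the slide as a term.

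Markers of meninges and fibroblasts had the lowest median, -0.58, with 10 of 11 negative and none free of overlap. Col3a1 and Col1a1, chains of fibrillar collagens, differed by -1.30 and -1.27, Dcn by -1.03 ± 0.31, Col1a2 by -0.86 and Igf2 by -0.85. The mean level was 0.31, -0.54, 0.28 and 0.68 in young and -0.98, -0.08, -0.14 and -0.61 in AI rats, so that young rat 2 lay among the AI rats, and without both rats 2 the median was -1.10. How much of the meninges stayed on the slices is not given in the sources used here. Genes of adult neurogenesis and proliferation had a median of -0.13 (0.00 with the slide as a term), with Dcx of young neurons at -0.68 ± 0.31 and the mitotic kinase Aurka higher without overlap (0.96), though its other probe, about as bright, differed by 0.12.

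**Figure D4:**
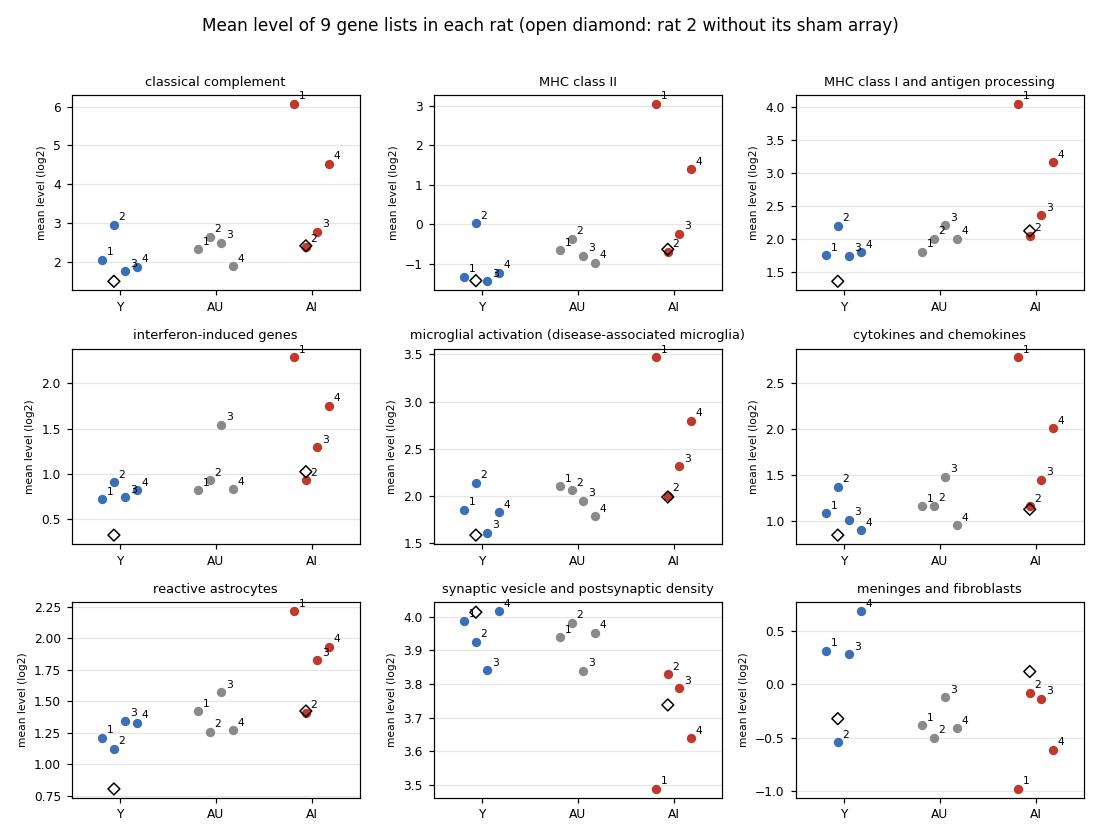
Mean level of the members of 9 lists (about log2 units from the array mean) in each young, AU and AI rat; open diamonds show young rat 2 and AI rat 2 without their sham arrays. In the complement and MHC lists AI rat 1 is highest (6.08 for complement), AI rat 4 second, and AI rats 2 and 3 lie nearer the young and AU rats.

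The AI rats differed widely among themselves. The mean level of the classical complement list was 6.08, 2.38, 2.77 and 4.52 in AI rats 1 to 4 against 2.05, 2.95, 1.75 and 1.87 in young rats, and young rat 2 was at 1.49 without its sham array. For MHC class II the levels were 3.06, -0.70, -0.25 and 1.40 in AI rats and -1.33, 0.03, -1.45 and -1.23 in young rats, with young rat 2 at -1.43 without its sham array. The order of the AI rats, 1, 4, 3 and 2 from the top, was the same in these lists and in the interferon list (2.29, 1.75, 1.29 and 0.93). The synaptic list ran the other way, with the lowest level in AI rat 1 (3.49), followed by AI rat 4 (3.64), and young rats at 3.84 to 4.02. Whether maze performance followed this order was not tested, since the labels give the class and not a score.

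The arrays lay on 5 slides of 8, and 4 slides held both AI and young arrays. RT1-Da was higher in AI arrays by 10.44, 3.55, 3.31 and 3.79 within these slides, and by 10.77 on the second slide without the 2 sham arrays, where the only AI array left is from AI rat 1, as on the first slide. The difference kept its sign on each slide, which is no separate check, since all AI rats already lay above all young rats. With the slide as a term and the rat as a random block the RT1-Da difference was 5.18. Within slides C3 was higher by 6.19, 1.80, 1.75 and 1.96, and Ifi44 by 1.70, 0.50, 0.58 and 1.44. The list medians within slides were 3.85, 1.18, 0.35 and 0.87 for classical complement and 1.70, 0.51, 0.20 and 0.32 for the interferon list. The first slide, with the arrays of AI rat 1 against young rat 1, gave the largest value of each of these measures with all arrays kept. AI rat 4 shared a slide with no young rat.

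Read within each treatment, the immune lists had the same direction, and the medians of the complement, MHC and interferon lists were smallest in sham. No probe was called in sham (623 at an unadjusted p under 0.05), in 1 Hz (2134) or in iTBS (1884), by limma with 4 against 4 arrays, and the 3 comparisons share their rats. Genes higher without overlap were 0.35% of all in sham, 2.8% in 1 Hz and 1.63% in iTBS, and those lower 0.277%, 1.5% and 1.81%. Both doubtful arrays are sham arrays. The classical complement list had medians of 0.69 in sham, 1.93 in 1 Hz and 1.94 in iTBS, MHC class II of 0.60, 1.38 and 1.35, MHC class I of 0.51, 1.13 and 1.13, and the interferon list of 0.48, 0.92 and 0.98. The meninges list had -0.21, -0.34 and -1.57. The synaptic list had -0.14, -0.28 and -0.25.

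**Figure D5:**
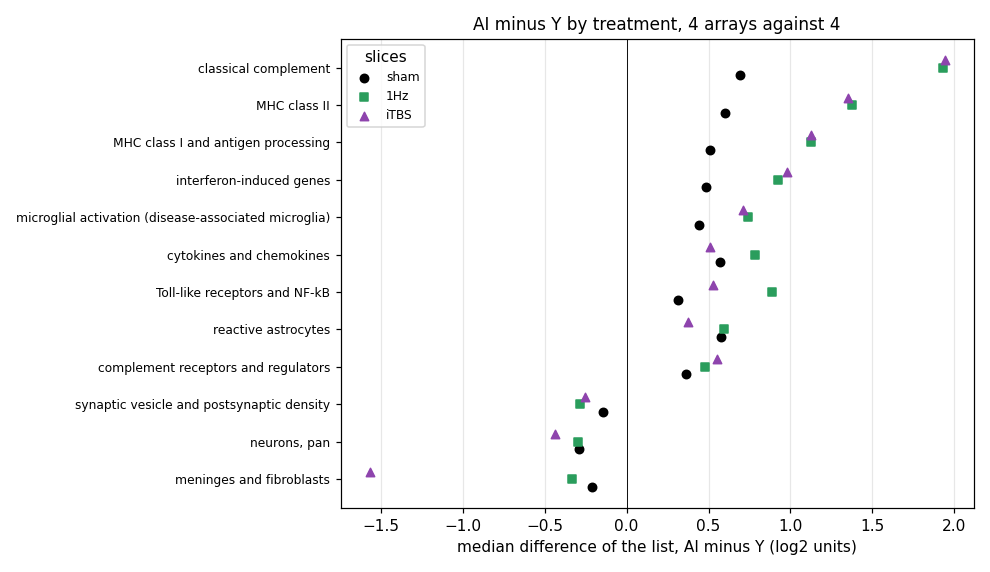
Median AI minus young difference (about log2 units) of 12 gene lists within sham, 1 Hz and iTBS arrays, 4 rats against 4. The immune lists lie right of 0 in all treatments, the complement, MHC and interferon lists nearest to 0 in sham, which holds both doubtful arrays, and the meninges list is farthest left in iTBS (-1.57).

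The genes with the smallest p in each treatment varied. In sham Ifit3 was higher in AI rats by 1.38 ± 0.27, Cdh23 by 1.42 ± 0.28 and Cdh1 (E-cadherin, an adhesion protein of epithelia) by 3.23 ± 0.52, and LOC102554363 was lower by a difference of -1.13. Cdh1 was well above background on 1 of the 4 young sham arrays, and the doubtful array of young rat 2 had the highest young level, -3.86, so the size of its difference is uncertain. Snai2, a repressor of E-cadherin, was well above background on no AI sham array, and the same held for Hoxd1. With each level there raised to at least the lowest level well above background on its array, they were 1.86-fold and 1.47-fold lower. This floor is not a detection limit of the probe, so such folds, here and below, are not lower bounds. In 1 Hz Clec2d2l2 was well above background on no young array and 5.05-fold higher in AI rats with that floor, and Batf was higher by 2.56 ± 0.37. Over rat means with normexp and quantile normalization Clec2d2l2 differed by 0.65. Tnnt1, a troponin, read 1.13, 1.01, 0.92 and 1.13 in young and 3.07, 2.86, 2.31 and 2.18 in AI rats after 1 Hz (1.55 ± 0.23), a gap wider than either group. On the lower side in 1 Hz stood Upp2 (-1.26), Nupr1 (-1.01 ± 0.23) and Slc26a7, which was not well above background in AI rats and 1.65-fold lower with that floor. In iTBS Clec2d2l2 was higher by 2.12 and Arl11 by 1.71. Cdh1, well above background on no young iTBS array, was 5.53-fold higher with that floor. Over rat means with normexp and quantile normalization Cdh1 differed by 0.98. Sv2b led the lower side in iTBS, at 3.86, 4.45, 3.57 and 4.12 in young and 2.81, 2.98, 2.02 and 2.56 in AI rats (-1.41 ± 0.29), followed by Palmd (-0.90) and St6galnac2 (-1.24).

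Whether stimulation moved AI and young slices differently was tested on the differences within each rat, and no probe was called (1316 at an unadjusted p under 0.05 by limma for 1 Hz against sham, 955 for iTBS against sham and 2886 for iTBS against 1 Hz). The last contrast holds no doubtful array, and there the groups did not overlap for 1.44% of genes higher and 2.7% lower in AI rats. Grm8, a presynaptic metabotropic glutamate receptor, was higher after iTBS than after 1 Hz by 1.01 to 2.27 in the young rats, and its change was -0.76 to -0.04 in the AI rats (difference of the changes -2.02 ± 0.31, adjusted p 0.771). Efna5, an ephrin ligand that guides axons, changed by a mean of 1.12 in young and of -0.44 in AI rats (-1.56 ± 0.28), and Vom2r46 by 0.40 and -0.44. In the other direction stood Fabp6 (1.17 ± 0.20) and the transcription factors Bcl11b (0.99) and Bhlhe22 (0.70) of cortical and hippocampal projection neurons. For 1 Hz against sham the neuronal nitric oxide synthase Nos1 was lower in young (mean -1.03) and higher in AI rats (0.46), a difference of 1.49 ± 0.26, beside Slc1a6 (1.45) and Neu3 (1.85), and Cd177l2 (-1.45) and the oligodendrocyte genes Mobp (-1.12) and Bcas1 (-0.92) lay the other way. For iTBS against sham the genes were Slc5a7 (2.52), LOC103693103 (1.05) and Dll4 (0.88), and Shisa8 (-1.40), F11r (-0.96) and Nos3 (-0.83). The contrasts with sham include both doubtful arrays, and there 0.905% and 0.742% of genes were higher and lower without overlap for 1 Hz and 0.259% and 0.585% for iTBS.

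Set beside the AU rats, which are of the same age as the AI rats, no probe was called in AI against AU (smallest adjusted p 0.213 by limma, 1425 at an unadjusted p under 0.05), and the groups did not overlap for 1.39% of genes higher and 1.82% lower in AI rats. In AU against young no probe was called either (0.122, 399 unadjusted), with 0.283% and 0.38%, and without the young sham array 2 the only call was Cdh1 (1 probe, 0.00219% of all). These comparisons share the AI or the young rats with the one above, so only the values are set side by side. The classical complement median was 1.52 in AI against young, 1.60 in AI against AU and 0.15 in AU against young; for MHC class II the values were 1.06, 1.16 and 0.14, for MHC class I 0.96, 0.94 and 0.10, and for the interferon list 0.75, 0.46 and 0.13. Without the young sham array 2 the AU against young medians were 0.34, 0.39, 0.27 and 0.35. C3 was higher by 1.98 in AI than in AU and by 1.04 in AU than in young rats. The meningeal collagens Col1a1 and Col3a1 and the growth factor Igf2 differed by -1.29, -1.16 and -1.26 in AU against young and by 0.03, -0.14 and 0.41 in AI against AU, and Dcx by -0.88 in AU against young.

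Of the genes with the smallest p in AI against AU, Clec2d2l2 was also named in AI against young. Akr1b10, an aldo-keto reductase, was at -1.09, -1.08, -0.95 and -0.95 in AU rats and at -2.23, -2.49, -2.55 and -2.73 in AI rats (-1.48 ± 0.16, adjusted p 0.213 by limma). The AI and AU rats were far apart, but the young rats, at -1.13, -2.07, -2.74 and -0.91, spanned both. Its relative Akr1b7 differed by -0.85 and the ubiquitin ligase Pja2 by -0.61, while in AI against young its probes differed by -0.57 and -0.05. Clec2d2l2 (1.42), LOC103691816 (1.00) and Ptgfrn (0.73) were higher in AI than in AU rats. Without the AI sham array 2 these 6 genes kept their sign, with Akr1b10 at -1.52 and Clec2d2l2 at 1.48.

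Cdh1 and Nupr1 were chosen after their values were seen, since an alternative fit called them. Cdh1 was at -6.09 to -3.86 on the 12 young arrays and at -4.20 to -0.59 on the 12 AI arrays, with AI rat 1 lowest among the AI rats, the reverse of its place in the immune lists. It was well above background on 1 young and 11 AI arrays, and 11 of the 12 AU arrays lay at -3.19 to -0.76. The difference of 3.62 had an adjusted p of 1.00 between rat means, of 0.023 without AI rat 1 (4.20) and of 0.0070 in limma's fit of single arrays with the rat as a random block, and it was 0.98 with normexp and quantile normalization. Nupr1, a stress-induced chromatin protein, differed by -0.99, and its adjusted p was 1.00 between rat means and 0.030 with the slide as a term and the rat as a random block. The fits of single arrays used 1 correlation within rats for all probes, 0.461, or 0.131 with the slide as a term. The arrays of a rat then count in part as replicates, so their small p are not p between rats.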

How the data were processed

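Total RNA of hippocampal slices was labelled with Cy3 and hybridized to one-colour Agilent rat arrays, on 5 slides of 8. The authors scanned the arrays and extracted, per the file headers, a background-subtracted intensity for each of 62976 features, with no normalization between arrays. The score values are the z-scores deposited by the authors, the log intensity minus the array mean, divided by the array SD; recomputed from the intensities they differed by at most 0.005. Here they were multiplied by 4.20 (SDs of 3.42 to 4.63), spots of a probe were averaged over 58717 non-control features, and 490 of 1641528 values over the 36 primary arrays were missing. Of 45598 probes 21109 carry a symbol (16581 genes) by matching accessions to RefSeq, and 6958 probes with Ensembl transcripts stayed unnamed. Depth is the signal over background (73.8% to 92.4% of features well above it), and the number of rats limits the precision.

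The 3 arrays of each rat were averaged, and 4 AI and 4 young rats were compared with limma 3.58.1 (lmFit, eBayes) in R 4.3.3, two-sided, unfiltered, with Benjamini-Hochberg adjustment at 0.05; ± is the SE. Lists used the brightest probe of a gene, 661 of 720 genes being on the array, in 22 pathway and 14 marker lists. The members and lists were chosen with earlier results of these data known. Named genes were the 5 per direction with the smallest p without overlap and well above background on all 12 arrays of a group, up to 4 members per list, and 3 per direction in each treatment, each difference between treatments and AI against AU; list members could be named as not passing. The test was checked on simulated data of 4 against 4 rats, with independent noise for each probe and 50 changed probes of each size. It called 34% of changes of 1 log2 unit, 78% of 2, 92% of 3 and 96% of 4, and 9 unchanged probes. The changed probes were drawn at random. These rates do not hold for genes with wide spread among rats, such as RT1-Da, not called at a difference of 5.51. Alternatives were scaling to the 75th percentile, normexp (offset 50, on median spot and background signals, since the files used hold no mean signal) with quantile normalization, a filter on dim probes, each rat left out, the rat number as a block, AU rats in the fit, all 9 groups in 1 fit, eBayes with trend, single arrays with the rat as a random block, with and without the slide, the mean of a gene's probes, averaged repeats and the criteria of the study's methods. Leaving out the sham arrays or both rats 2, and the stimulated arrays alone, were in part chosen after seeing the data. Plots used matplotlib 3.10.9 in Python 3.11.15.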

Additional observations from a re-analysis of the deposited data

Results flagged for a closer look

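Of 126 groups of 4 rats checked for a rat that stood far from the other rats of its group (by Dixon's ratio of the gap to the whole range), 8 had one, and chance alone flags about 1 in 20 groups. Of these, 7 were among young rats and 5 were young rat 2, whose sham array is the one of doubtful identity. Young rat 2 had a level of 0.077 for RT1-Da, where the other young rats had -3.094 to -2.569. Its level was 0.056 for RT1-Bb (others -2.408 to -2.016) and 5.908 for RT1-A2 (others 4.508 to 4.578). Its mean level over the MHC class I list was 2.198 (others 1.744 to 1.792) and over the MHC class II list 0.02657 (others -1.447 to -1.226). Without its sham array RT1-Da was at -3.53 and RT1-A2 at 4.37 in this rat.

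Young rat 3 stood apart for Met, at 3.591 against 3.08 to 3.129, and young rat 4 for Rtp4, at 0.462 against -0.056 to 0.028. Among AI rats the SD of log2 intensity over an array, averaged over the 3 arrays of a rat, was 4.002 in AI rat 1 and 4.316 to 4.367 in the other AI rats.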

How the results depend on the processing

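Of the genes and the 12 lists recomputed under each alternative, none changed direction. With the slide fixed and the rat random, run for all lists, the medians of myelin (-0.01 to 0.11) and of adult neurogenesis and proliferation (-0.13 to 0.00) changed sign, both near 0. The number of called probes in AI against young was 0 with the replicate block (rat number as a block, with 0 of 45598 probes called), and correlations of the deviations between same-numbered rats were 0.34, -0.22, 0.39 and 0.32, so that the numbers do not pair the rats. It was 1 with the rat as a random block (Cdh1), 9 with the slide fixed and the rat random, and 236 by the criteria of the study's methods (165 higher and 71 lower, and 291 and 79 without the doubtful sham arrays); when 1 rat was left out it ranged from 0 to 1, the call being Cdh1 without AI rat 1. In 1 Hz and in iTBS the same omission gave the range 0 to 1, and AU against young had 1 call without the young sham array 2. The median of the MHC class II list was 2.82 with the filter on dim probes, since dim members pass that filter through the AI group in which they are high, and that of the meninges list was -1.10 without both rats 2, whose cause was not tested. The other list medians moved by less than the spread among rats, to which AI rat 1 adds. Without AI rat 1 list medians were 0.82 for classical complement, 0.44 for MHC class II, 0.60 for MHC class I and 0.54 for interferon. Those of activated microglia, Toll-like receptors and cytokines were 0.38, 0.29 and 0.40. Nupr1 and Cdh1 were the genes among those recomputed that gained a call. With normexp and quantile normalization the differences of Cdh1, Clec2d2l2, Spp1, Ly49s7 and Batf were 0.98, 0.65, 0.46, 0.30 and 1.07, those of Rpl39l1 and Aspdh -0.52 and -0.24, and those of Serpina3n, Cd69, Oas1a, RT1-CE5, Cxcl13, S100a8 and Cdkn2a 0.31, 0.18, 0.80, 1.86, 1.12, 0.54 and 0.34, each smaller by over 1.5 times.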
